A study of Mus musculus with 12 samples.

Results

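The non-HOX homeobox transcription factors were followed in sorted spermatogonia of control and cryptorchid mouse testes. Members were the genes of the Nkx, sine oculis homeobox (such as *Six4*), Dlx, Irx, Msx, Lhx (*Lhx2* to *Lhx9*), Meis, Pbx and Pitx families. Genes were taken by symbol, and 52 of the 21859 genes in the table matched. The choice of families was made with earlier results of these data known. RNA was measured in 12 libraries of GFRa1+/KIT- cells, 5 from control testes (genotype given as WT) and 7 from cryptorchid testes (genotype given as Cryptorchid), all taken 10 days after surgery from adult male mice that carry a GFRa1-EGFP reporter. Surgery fixed the left testis to the abdominal wall, and the right testis of operated mice stayed in the scrotum as the control, so the controls were not from untouched animals. The reporter marks cells that express *Gfra1*, the GDNF receptor of undifferentiated spermatogonia, and which libraries came from the same mouse is not stated. Each library was made by Smart-seq2, a full-length cDNA method with PCR and without molecular identifiers, from RNA of about 200 cells. Cryptorchid testes were digested at a higher temperature than control testes, so condition and digestion temperature cannot be told apart.

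Homeobox proteins bind DNA through a shared fold, the homeodomain, and set cell identity in the embryo. Proteins of the sine oculis group work with EYA coactivators and DACH corepressors, LIM-homeobox (LHX) proteins need LDB cofactors, and PBX and MEIS proteins of the TALE class join each other and other homeodomain proteins on DNA. Many of these genes carry H3K27me3, a histone mark of Polycomb repression, in cells that do not use them, and the study asked whether such epigenetic states are kept in the germline stem cells of a heated testis.

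The libraries held 4511730 to 24345368 reads on genes in control and 3306771 to 20027902 in cryptorchid samples, and read numbers here cover counting error only. They fell into a pair of sets by replicate number, called batch 1 (replicates 1 to 3) and batch 2 (replicates 4 and above) here. These sets were recognised from the values, and the sample titles name no batch. Of genes with 1 to 20 reads, 53.2% to 60.8% had an even read number in batch 1 and 48.2% to 50.5% in batch 2. All 11 markers of undifferentiated spermatogonia had reads in every library. Spermatid markers were lower in cryptorchid samples, with *Prm1*, *Prm2* and *Odf1* of the 6 markers passing the test and a summed level of 12.5 to 1666 RPM (reads scaled to the read total of the library) against 481 to 2558 RPM in control. Of 7 endothelial markers *Cdh5* and *Vwf* passed as higher, with summed levels of 19.2 to 52.6 RPM against 10.0 to 29.9 RPM in control. Of 6 markers of differentiating spermatogonia *Stra8* passed as higher and *Dnmt3b* as lower, and no marker passed among spermatocyte, Sertoli, Leydig, myoid, macrophage, lymphocyte and undifferentiated lists. The Leydig marker *Cyp17a1* had reads in 1 library and the Sertoli marker *Amh* in 2, but *Star* and *Clu* of the same lists had reads in all 12. Summed Sertoli levels were 44.5 to 262 RPM in control and 41.5 to 244 RPM in cryptorchid libraries. Summed Leydig levels were 8.64 to 15.5 RPM in control and 6.18 to 47.8 RPM in cryptorchid libraries. Fewer cells that express a gene and less RNA per cell cannot be told apart in these bulk samples.

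Upstream sequence is shown for the member that passed the test (*Six4*), for its relative with reads in all 5 control and in 2 of 7 cryptorchid libraries (*Six2*) and for a member without reads in any library (*Lhx3*). These are RefSeq promoter sequences on GRCm38.p6, 5′ to 3′ on the strand of the gene, cut at the start of the GENCODE gene, with CG dinucleotides in capitals.
*Six4*, chr12:73113457-73113675, minus strand: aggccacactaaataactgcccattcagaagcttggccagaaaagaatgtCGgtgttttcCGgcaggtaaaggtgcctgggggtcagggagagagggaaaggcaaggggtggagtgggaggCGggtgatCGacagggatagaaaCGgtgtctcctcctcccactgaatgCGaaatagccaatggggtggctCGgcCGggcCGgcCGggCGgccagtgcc
*Six2*, chr17:85688275-85688504, minus strand: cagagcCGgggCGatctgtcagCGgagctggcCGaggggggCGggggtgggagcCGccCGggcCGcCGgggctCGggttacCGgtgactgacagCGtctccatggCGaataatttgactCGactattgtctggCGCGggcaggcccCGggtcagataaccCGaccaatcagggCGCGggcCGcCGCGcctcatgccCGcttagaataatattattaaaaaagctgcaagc
*Lhx3*, chr2:26208290-26208499, minus strand: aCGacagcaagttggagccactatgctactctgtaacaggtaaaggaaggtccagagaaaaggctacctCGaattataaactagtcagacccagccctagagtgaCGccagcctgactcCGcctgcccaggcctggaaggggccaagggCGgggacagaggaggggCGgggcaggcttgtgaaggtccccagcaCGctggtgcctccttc

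The *Six4* stretch held 11 CG in 219 bases, the *Six2* stretch 24 in 230 and the *Lhx3* stretch 7 in 210. A promoter was matched for 36 of the 52 members, and in the 250 bases before the start these had a median of 15 CG, against 10 over the 16802 genes of the table with a promoter and 14 over the 13114 of them that were tested. The motif CCAAT, on either strand, was in 17 of the 36 member promoters (47.2%) and in 36.3% of all. GGGCGG was in 23 (63.9%) and in 44.0% of all, and TATAAA in 3 (8.33%) and in 12.1% of all. Over the tested genes with a promoter, CCAAT was in 36.4%, GGGCGG in 53.2% and TATAAA in 7.43%. Of the 16 tested members with a promoter, 10 had CCAAT (62.5%), 9 GGGCGG (56.25%) and 1 TATAAA (6.25%). *Six4* and *Six2* each had CCAAT and GGGCGG without TATAAA in the stretches shown, and *Lhx3* had TATAAA and GGGCGG without CCAAT. The median CG count was 15 in the 16 tested members with a promoter and 14.5 in the 20 that were not tested.

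The Pbx genes held much of the homeobox RNA in these cells. All values are log2 RPM raised to a common floor of -1.92, the highest of the library minima, so that shallow and deep libraries share the same lower limit. Of the 52 members, 26 had a log2 mean RPM above -1 and were tested, 14 had reads in all 12 libraries, and 26 were too low to test. The 4 Pbx genes held 34.0% to 60.2% of the reads on members in a control library (median 51.1%) and 39.9% to 80.8% in a cryptorchid library (median 70.1%), and these ranges overlapped. The summed level of the members was 180 to 213 RPM in control and 176 to 250 RPM in cryptorchid libraries, which overlapped.

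**Figure D1:**
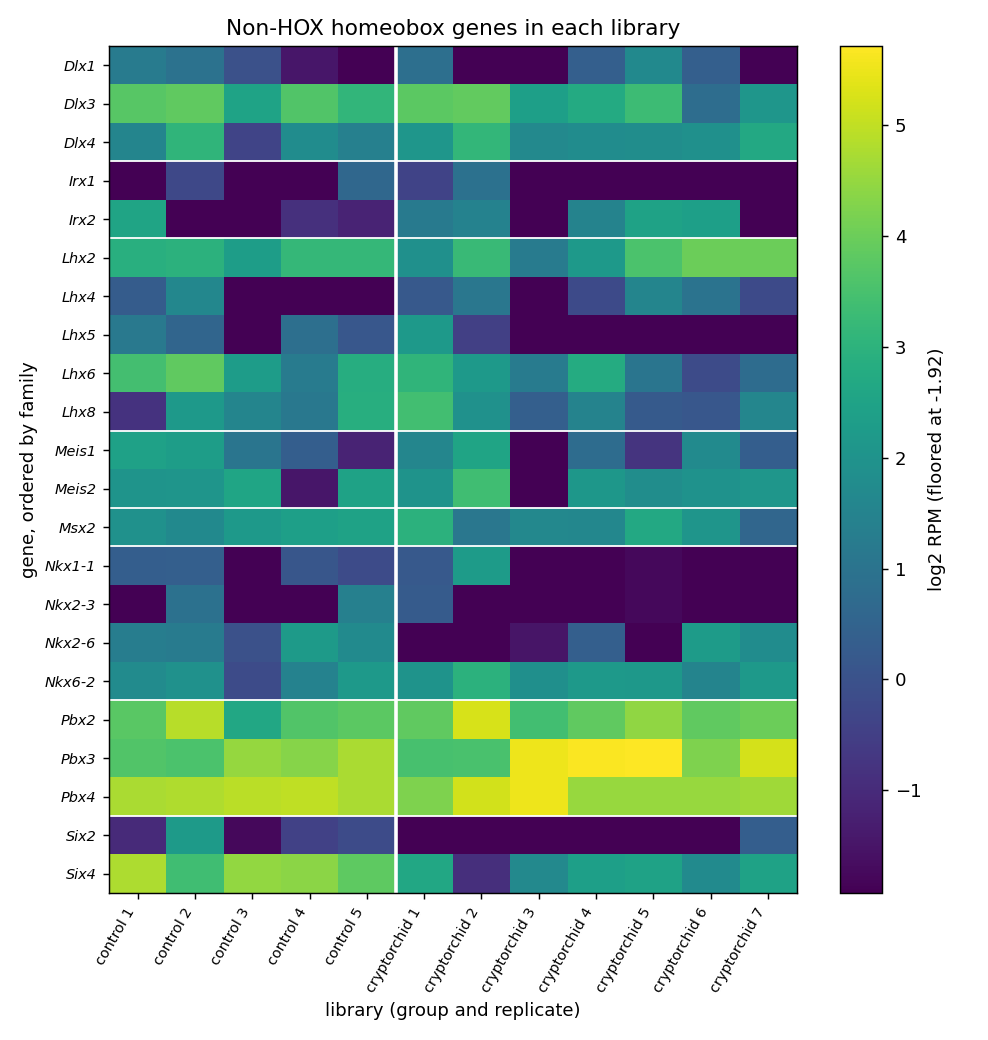
Log2 RPM (colour, floored at -1.92) of 22 of the 26 tested members (rows, by family) in each of the 12 libraries (columns, control left of the white line). *Pbx4* is bright in every library, and *Six4* is brighter in all 5 control libraries than in any of the 7 cryptorchid libraries.

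*Six4* was lower in cryptorchid samples, and it was the only tested member called at 2-fold and an unadjusted *P* of 0.05 with limma, against 5.63% of all 16932 genes called in either direction, 2.45% called lower and 3.18% called higher. So 1 of 26 members (3.85%) was called, a share near the background, and *Six4* was also the only member under an unadjusted *P* of 0.05 (9.16% of all genes). No member passed a Benjamini-Hochberg adjusted *P* of 0.05, which 2 of all tested genes did (0.0118%). With array weights, which count libraries by their agreement with the fit, 400 genes passed it, *Six4* among them (limma, adjusted *P*=0.0374). Of the 26 members 17 (65.4%) had a lower and 9 a higher mean in cryptorchid samples, beside 44.0% lower over all tested genes. Their median log2 difference was -0.10, beside 0.09 for all tested genes. Of the 26 members, 3 entered the test through a single group (*Six2* and *Nkx2-3* among them), so these counts are a description.

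**Figure D2:**
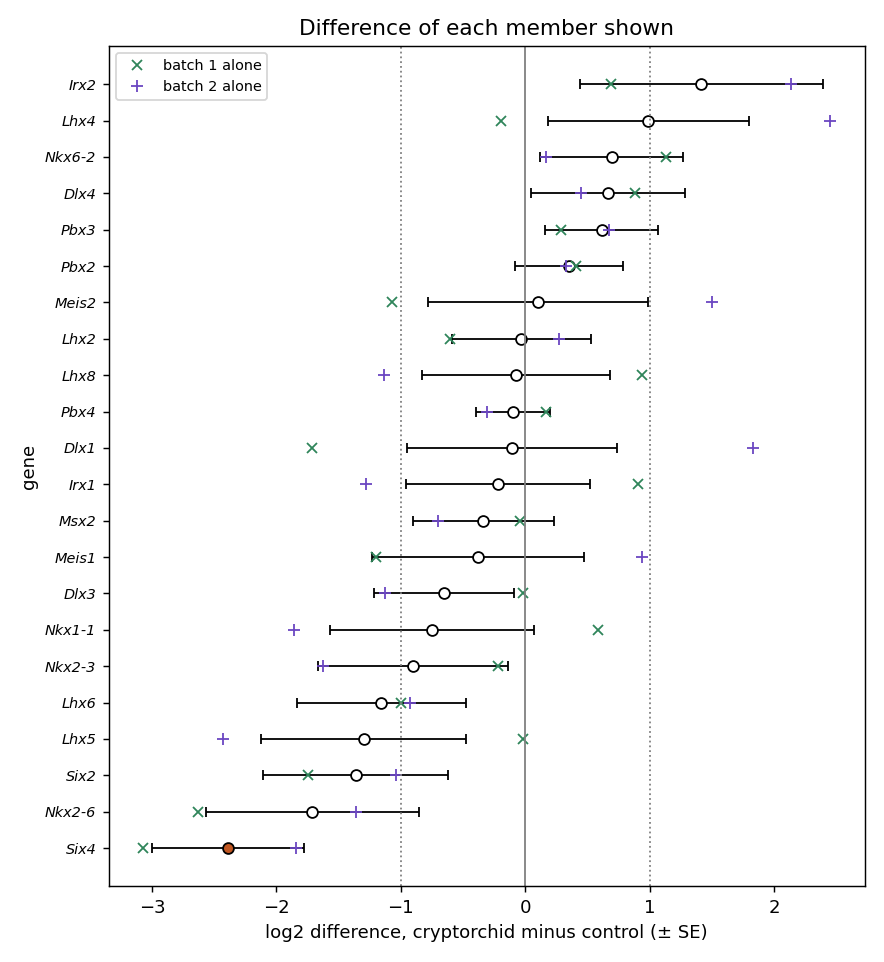
Log2 difference (cryptorchid minus control, circles, ± SE, n=5 and 7) of 22 of the 26 tested members, with the same difference in batch 1 alone (crosses) and batch 2 alone (plus signs). The filled circle is *Six4* at -2.39, the called member, and dotted lines mark a 2-fold difference.

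Sine oculis factors and EYA cofactors. *Six4* encodes a sine oculis homeodomain protein known from the early gonad, muscle and kidney, and it lies on chromosome 12 (GRCm38 chr12:73099609-73113456, minus strand). Its level in the control libraries was 4.79, 3.38, 4.47, 4.39 and 3.83, and in cryptorchid libraries it ran from -0.90 to 2.64 with a median of 2.37. The groups did not overlap, which held for 0.839% of all tested genes in either direction and 0.283% as lower. Behind these values stood 64 to 672 reads per control library and 6 to 139 per cryptorchid library. Control libraries averaged 4.17 ± 0.56 (SD, n=5) and cryptorchid libraries 1.78 ± 1.24 (SD, n=7), a log2 difference of -2.39 ± 0.611 (SE) or 5.23-fold lower (limma, unadjusted *P*=0.00101, Benjamini-Hochberg adjusted *P*=0.199). The exact two-sided rank sum test gave *P*=0.00253, the smallest possible with 5 and 7 libraries. Batch 1 alone gave -3.07 and batch 2 alone -1.84 (exact two-sided within-batch *P*=0.00667, the smallest possible). Cryptorchid replicate 2 stood lowest, and without it the difference was -1.94.

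Spermatid markers, which were lower in the same comparison, stood beside *Six4* as follows. In 5 of 7 cryptorchid libraries the summed spermatid level was under the lowest control library, and replicate 2 had both the lowest spermatid level of all (12.5 RPM) and the lowest *Six4* (-0.90). In cryptorchid replicates 4 and 6 the summed spermatid level was 598 and 1666 RPM, inside the control range, and *Six4* was 2.37 and 1.72, under its lowest control value of 3.38. In control replicate 2, which had the lowest spermatid level of the control libraries (481 RPM), *Six4* was at that lowest value. The part of spermatid RNA in the *Six4* difference was not tested.

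**Figure D3:**
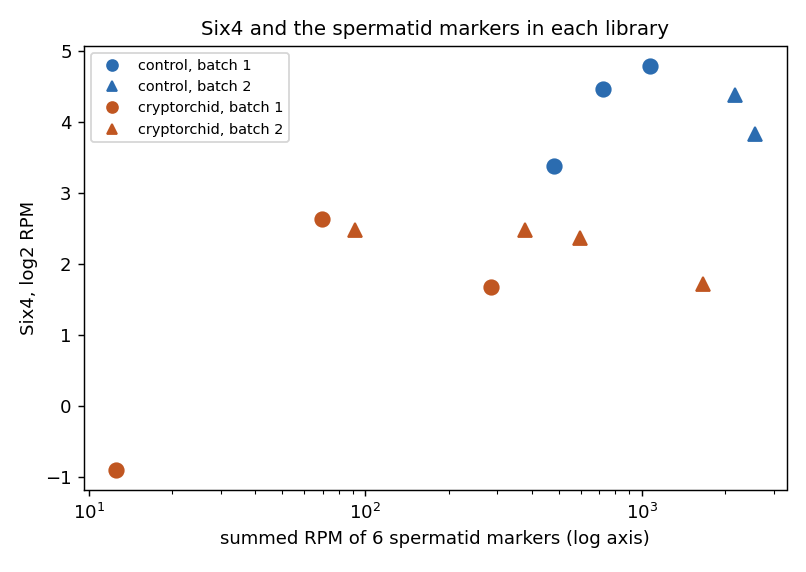
*Six4* (log2 RPM, vertical axis) against the summed RPM of 6 spermatid markers (log axis) in each library, control in blue and cryptorchid in orange, batch 1 as circles and batch 2 as triangles. Cryptorchid replicates 4 and 6 lie within the control range of spermatid RNA and below every control library in *Six4*.

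*Six2*, which keeps nephron progenitors undifferentiated in the kidney, was near the limit of detection. The control libraries held 12, 137, 3, 4 and 4 reads of it. Of the cryptorchid libraries, replicate 1 held 1 read, replicate 7 held 6 and the other 5 none. *Six2* entered the test through its control level only, so its difference of -1.36 ± 0.740 (SE), under the call, is a description. Control replicate 2 stood far above the other libraries, and without it the difference was -0.74. *Six3* had 4, 3 and 1 reads in 3 libraries and was too low to test, as was *Six5*, with at most 12 reads in a library.

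Of the 6 cofactors of these proteins in the table (EYA and DACH genes), *Eya4* was called, also as lower, while *Eya1*, *Eya2*, *Eya3*, *Dach1* and *Dach2* were not. *Eya4*, a coactivator and phosphatase known from the inner ear and heart, was at 4.10, 3.60, 4.60, 4.68 and 5.13 in control and between -1.92 and 4.22 in cryptorchid libraries. Replicates 2 (at the floor) and 5 (1 read) were far below the rest of the cryptorchid group, in which the remaining libraries were between 2.91 and 4.22. The summed spermatid level was 12.5 RPM in replicate 2 and 92.0 RPM in replicate 5, both under the control range. Replicates 1 and 3 were also under it (69.5 and 284 RPM), with *Eya4* at 2.91 and 4.22. Replicate 6, at 1666 RPM, had *Eya4* at 4.12. The part of spermatid RNA in the *Eya4* difference was not tested. The difference was -2.40 ± 0.997 (SE, limma, unadjusted *P*=0.0269, adjusted *P*=0.463), with an exact two-sided rank sum *P* of 0.0303. Without cryptorchid replicate 2 it was -1.74 and without replicate 5 -1.77, and neither passed the test, nor did it without control replicate 5 (-2.22). *Eya3*, the best covered of the list, was 6.71 ± 0.289 in control and 7.0 ± 0.370 in cryptorchid samples (SD), a difference of 0.30.

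**Figure D4:**
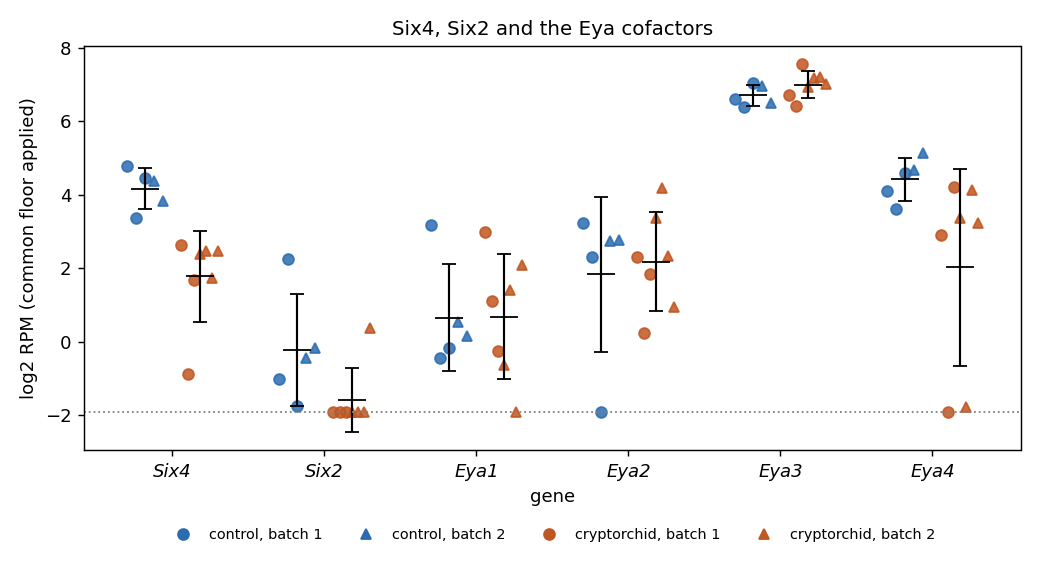
Log2 RPM of *Six4*, *Six2* and 4 Eya genes in each library (control blue, cryptorchid orange, circles batch 1, triangles batch 2), with mean and SD. *Six4* separates the groups, and 2 cryptorchid libraries of *Eya4* lie at or near the dotted floor.

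Nkx genes. Of the 14 Nkx genes 5 were tested and none was called. *Nkx2-6*, known from the pharyngeal pouches and heart, was at 1.32, 1.26, -0.03, 2.24 and 1.73 in control. In cryptorchid libraries it ran from -1.92 to 2.27 with a median of -1.49, with no reads in 2 libraries. Cryptorchid replicates 4, 6 and 7 were inside or above the control range, at 0.37, 2.27 and 1.78. Its difference was -1.71 ± 0.857 (SE, limma, unadjusted *P*=0.0609), and it passed the call under 6 of the 13 other settings that tested it. Leaving out control replicate 3 or cryptorchid replicate 6 or 7 also put it past the call (-2.05, -2.16 and -2.07).

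*Nkx6-2*, an oligodendrocyte and spinal cord factor, had reads in all 12 libraries and was at 1.75, 1.93, -0.18, 1.45 and 2.22 in control and 1.51 to 3.0 (median 2.14) in cryptorchid samples, a difference of 0.69 ± 0.575 (SE). Part of its exon sequence, 12.9%, lies over exons of *Inpp5a* on the other strand, and the counting strand is not stated. *Nkx2-3*, of spleen and gut vasculature, had 55 reads in control replicate 2, 27 in cryptorchid replicate 1 and 12 in control replicate 5, and 0 to 2 elsewhere. *Nkx1-1* was -0.24 ± 0.97 in control and -1.0 ± 1.64 in cryptorchid samples (SD). For *Nkx1-1* batch 1 gave 0.58 and batch 2 -1.86, so the sign turned with the batch.

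LIM-homeobox genes. Of 7 Lhx genes from *Lhx2* to *Lhx9*, 5 were tested and none was called. *Lhx2*, which acts in eye, hair follicle and forebrain, was the best covered, at 2.90, 2.99, 2.32, 3.16 and 3.15 in control and 1.25 to 3.99 (median 3.25) in cryptorchid libraries. The means were 2.90 ± 0.34 and 2.87 ± 1.09 (SD), a difference of -0.03 ± 0.558 (SE), and the cryptorchid values lay on both sides of the narrow control range. *Lhx6*, of cortical interneurons, was at 3.42, 3.84, 2.29, 1.24 and 2.83 in control and -0.19 to 3.08 (median 1.25) in cryptorchid libraries. Its difference of -1.16 ± 0.679 (SE, limma, unadjusted *P*=0.105) was close to equal in the batches (-1.0 and -0.93). It passed the call without control replicate 4 (-1.53).

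*Lhx5* (forebrain) and *Lhx4* (pituitary) had few reads, and their differences varied with the batch. *Lhx5* had reads in 4 of 5 control libraries (55, 43, 10 and 5) and in 3 of 7 cryptorchid libraries (101, 8 and 1). Batch 1 gave -0.02 and batch 2 -2.43 for it, and all libraries together -1.30 ± 0.825 (SE, limma, unadjusted *P*=0.132). It passed the call without control replicate 3 (-1.82) or cryptorchid replicate 1 (-1.85). *Lhx4* was -0.20 in batch 1 and 2.45 in batch 2, and 0.99 ± 0.808 (SE) over all, from 0 to 88 reads per control library and 0 to 26 per cryptorchid library. Batch 2 had only 2 control libraries, with 1 read of *Lhx4* in each.

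*Lhx1*, a LIM gene outside the rule that spermatogonia express under GDNF, was 2.84 ± 0.593 in control and 3.11 ± 0.597 in cryptorchid samples (SD), a difference of 0.27 ± 0.476 (SE). None of the 5 LIM homeobox genes outside the rule was called, with *Lmx1a* the best covered next to *Lhx1* at -0.45. Of the 9 LIM-domain cofactors none was called. *Ssbp2*, the best covered of them and a partner of LDB proteins, was 7.52 ± 0.0846 in control and 7.72 ± 0.431 in cryptorchid samples (SD).

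Pbx and Meis genes. The 4 Pbx genes had reads in all 12 libraries, and none was called. Per kilobase of exon, *Pbx4*, a family member known for its expression in testis, stood highest of all tested members in both groups, at a log2 RPKM of 3.69 in control and 3.59 in cryptorchid samples. *Pbx4* was at 4.74, 4.80, 4.93, 4.98 and 4.74 in control and 4.24 to 5.52 (median 4.54) in cryptorchid libraries on the log2 RPM scale. The means of 4.84 ± 0.11 and 4.74 ± 0.45 (SD) differed by -0.10 ± 0.297 (SE, limma, unadjusted *P*=0.746), the smallest error among the tested members.

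*Pbx3* was at 3.65, 3.54, 4.49, 4.34 and 4.73 in control and 3.50 to 5.71 (median 5.21) in cryptorchid libraries, a difference of 0.61 ± 0.453 (SE). Replicates 1 and 2 were the lowest of their group for *Pbx3*, in control and in cryptorchid samples. *Pbx2* was at 3.76, 4.89, 2.65, 3.65 and 3.78 in control and 3.40 to 5.26 (median 3.85) in cryptorchid libraries, a difference of 0.35 ± 0.431 (SE).

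**Figure D5:**
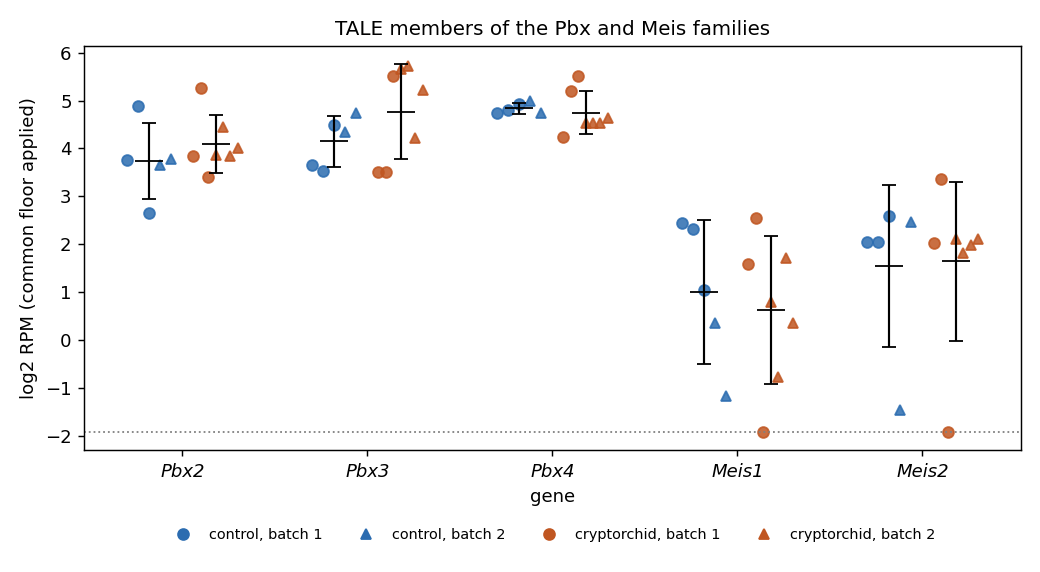
Log2 RPM of *Pbx2*, *Pbx3*, *Pbx4*, *Meis1* and *Meis2* in each library (control blue, cryptorchid orange, circles batch 1, triangles batch 2), with mean and SD and the floor as a dotted line. The groups overlap for each gene, *Pbx4* has the narrowest control range, and for *Meis1* and *Meis2* single libraries lie at or near the floor.

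*Meis1* and *Meis2*, partners of PBX proteins in limb and blood development, were lower and more variable. *Meis1* was at 2.45, 2.31, 1.04, 0.35 and -1.17 in control and -1.92 to 2.54 (median 0.79) in cryptorchid libraries, and the sign of its difference turned between batch 1 (-1.20) and batch 2 (0.94). *Meis2* was at 2.04, 2.05, 2.58, -1.46 and 2.47 in control and -1.92 to 3.36 (median 2.01) in cryptorchid libraries. A single library in each group, control replicate 4 and cryptorchid replicate 3, was low for *Meis2*. The 5 other TALE genes (*Pknox1*, *Pknox2*, *Tgif1*, *Tgif2* and *Mkx*) were not called, and *Tgif2*, a well covered TGF-beta signalling repressor, differed by -0.11.

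Dlx, Msx and Irx genes. These families act in limb, craniofacial and neural patterning, and none of their tested members was called. *Dlx3*, of placenta and hair, had reads in all 12 libraries and was at 3.73, 3.86, 2.51, 3.63 and 3.11 in control and 0.81 to 3.88 (median 2.74) in cryptorchid libraries, a difference of -0.65 ± 0.561 (SE). Its neighbour *Dlx4*, 15.2 kb away on the other strand of chromosome 11, had the opposite sign, at 1.54, 3.06, -0.35, 1.79 and 1.41 in control and 1.68 to 3.13 (median 1.90) in cryptorchid libraries (0.66 ± 0.620, SE). Neither passed the test. *Msx2*, a BMP target in skull and teeth, was at 1.95, 1.69, 2.20, 2.40 and 2.47 in control and 0.58 to 2.97 (median 1.63) in cryptorchid libraries, and the difference of -0.34 ± 0.568 (SE) was within the spread.

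*Irx2*, a patterning gene of the Iroquois family, was at 2.53 in control replicate 1 and between -1.92 and -0.87 in the other 4 control libraries. In cryptorchid samples 5 of 7 libraries were between 1.19 and 2.48, and replicates 3 and 7 were at the floor. The difference was 1.41 ± 0.975 (SE, limma, unadjusted *P*=0.164), and without control replicate 1 it was 2.21 and passed the call.

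The other 26 members were not tested. Of these, 24 had reads in 1 to 7 libraries, with at most 57 reads in any of them, and *Irx6* and *Lhx3* had none. Of the untested members, 6 had reads in control libraries only and 2 in cryptorchid libraries only. The median library held 7603202 reads on genes in control and 4611830 in cryptorchid samples. The same split over all untested genes was not counted, so these counts are a description. A gene with 3 reads stood at -3.26 to -0.59 log2 RPM in control and at -2.89 to -0.19 in cryptorchid libraries. A gene with 1 read stood at -4.85 to -2.17 in control and at -4.48 to -1.77 in cryptorchid libraries, and levels under 1 read were not detectable. Between 22 and 34 members reached 3 reads in a control library (median 28) and between 16 and 29 in a cryptorchid library (median 24). The deepest libraries, control replicates 1 and 2 and cryptorchid replicate 1, reached the most members (34, 32 and 29). The other libraries of batch 1 reached 24, 22 and 16, in order of falling depth. Across batches the order by depth did not hold. Control replicate 5 (batch 2), the shallowest of its group, reached 28 members and the deeper control replicate 3 (batch 1) reached 22. Named after its values were seen, *Nkx3-2*, a skeletal patterning gene, had no reads in the 5 control libraries and 10, 4, 4 and 1 reads in 4 cryptorchid libraries.

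Corepressors and H3K27 enzymes. Many homeobox proteins recruit Groucho/TLE corepressors. Of the 5 in the table *Tle2* was called as higher. It was at -0.61, 3.02, 0.35, 1.63 and -1.92 in control and between 0.81 and 3.02 in cryptorchid libraries, a difference of 1.72 ± 0.790 (SE, limma, unadjusted *P*=0.0433, adjusted *P*=0.527). Without control replicate 5 it was 1.11, and it lost the call in 8 of the 12 fits that leave out a library and under 11 of 14 other settings. *Tle3*, the best covered of the list, was 7.48 ± 0.416 in control and 6.63 ± 0.589 in cryptorchid samples (SD), a difference of -0.85 ± 0.302 (SE, limma, unadjusted *P*=0.0113, adjusted *P*=0.378), under the 2-fold limit. None of the 8 H3K27 methylation enzymes and demethylases was called. Over the cofactor and related lists, 2 of 38 genes were called (5.26%) beside the background of 5.63%. *Kdm6a*, an H3K27 demethylase, was 4.62 ± 0.60 in control and 5.18 ± 0.437 in cryptorchid samples (SD), a difference of 0.56 ± 0.329 (SE, limma, unadjusted *P*=0.108). *Rbbp7*, the best covered of that list, was 8.13 ± 1.05 in control and 7.80 ± 0.551 in cryptorchid samples (SD).

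Other developmental transcription factors were set beside the homeobox members without a test between the sets. Of 39 HOX cluster genes 16 were tested and none was called, with a median difference of -0.40. Of the 16, 13 were lower (81.25%), beside 44.0% of all tested genes. Of 40 forkhead genes outside the FOXO group 22 were tested and none was called, with a median of -0.15. Of 47 SOX, PAX, GATA and T-box genes 38 were tested and 5 were called (*Gata1*, *Gata3*, *Pax2*, *Sox15* and *Tbx3*), 2 higher and 3 lower, with a median of -0.23. The median of -0.10 over the homeobox members lay between these and the 0.09 of all tested genes, and the sets share the same libraries. Genes called higher made up 56.5% of all calls here and 46.5% with each library centred on its median.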

How the data were processed

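Per the submitters' processing notes and the study's methods, reads went through FastQC 0.11.8, Trim Galore 0.6.6 and HISAT2 2.1.0 (mm10). Reads over protein-coding UCSC genes were quantified in SeqMonk, and the authors deposited them as log2 RPM for 21859 genes in 12 libraries. Replicates were not pooled, and 0 columns belonged to no sample. A gene without reads is written as the library minimum, which stands for 0.9 reads, and the steps between low values gave whole reads for 100% of values under 1000 reads (tolerance 0.01). The deposited unit is not counts, so the main test used log2 values, and voom on the recovered whole reads was an alternative.

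Values were raised to a common floor (-1.92 log2 RPM). Genes with a log2 mean RPM above -1 entered an unpaired fit by lmFit and trended eBayes (limma 3.58.1, R 4.3.3). A call needed a 2-fold difference and an unadjusted *P* of 0.05 (two-sided). P-values measure the spread between libraries. Single genes also had an exact two-sided rank sum test in Python 3.11.15, over all libraries and within batches. The limma fit was tested on simulated data. Gene positions came from GENCODE vM21, whose build GRCm38 is mm10, and 18 of 52 members share exon bases with another gene, *Six4* not among them. RPKM used the union of GENCODE exons, which may differ from the lengths counted.

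Members and lists were chosen with earlier results of these data known. Values in every library are given for called members, members whose groups do not overlap, the best covered member of each of 9 families, and the smallest *P*-values up to 22 members. Of the cofactor lists, each called and each best covered gene and *Lhx1* were named. Values of 4 tested members are not reported here. Whether replicate numbers pair the libraries is not stated and was not settled by the values, so the main fit was unpaired. The replicate block stands only in the closing section, with the other normalizations, pseudocounts, filters, array weights, voom on whole reads, batch fits and left-out libraries that were tried.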

Additional observations from a re-analysis of the deposited data

Results flagged for a closer look

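A library far from the rest of its group, by Dixon's 95% limit, was found in 8 of 46 groups of values. The 46 groups were 19 named members, the 2 called cofactors and 2 library totals, each in both conditions. That limit is made for normally spread values. Some groups held libraries piled at the common floor, where a single library with reads is easily marked, so 8 of 46 cannot be set against a chance rate. In cryptorchid samples *Six4* was lowest in replicate 2, at -0.90 log2 RPM against 1.68 for the nearest library. *Six2* was highest in cryptorchid replicate 7 (0.36), with the others at the floor of -1.92. *Lhx5* and *Nkx2-3* were highest in cryptorchid replicate 1, at 2.18 (nearest -0.48) and 0.28 (nearest -1.77). In control samples *Irx2* was highest in replicate 1 (2.53, nearest -0.87), and *Nkx1-1* was lowest in replicate 3 (-1.92, nearest -0.17). *Meis2* was lowest in control replicate 4 (-1.46, nearest 2.04) and in cryptorchid replicate 3 (-1.92, nearest 1.81).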

How the results depend on the processing

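*Six4* stayed called as lower under all 14 other settings and in all 12 fits without a library. The number of called members was 2 without the common floor, with median centring, quantile normalization, log2(RPM + 0.1), a batch term, batch 1 alone or 3 libraries of lowest array weight left out (chosen after seeing the data), 3 with array weights, voom on whole reads or the replicate block, and 4 in batch 2 alone. Without a library it was 1 to 4 (4 without control replicate 3, 3 without cryptorchid replicate 7, 2 without control replicate 1 or 4 or cryptorchid replicate 1 or 6). Of cofactor genes, 1 was called with median centring, quantile normalization, log2(RPM + 1), log2(RPM + 0.1), a filter at 2, voom, the replicate block or the 3 libraries left out, and 0 without a filter or in batch 1 alone (0 to 3 without a library, 0 without control replicate 5 and 3 without control replicate 2). No member passed a Benjamini-Hochberg adjusted *P* of 0.05 under 12 of 14 other settings or without any library, but with array weights *Six4* did (limma, adjusted *P*=0.0374, 400 genes in all), as did *Six4* (0.0147) and *Nkx2-6* (0.0310) with the replicate block (982 genes in all). A batch term passed 55 genes and no member. Over all genes 953 were called (538 higher, 415 lower), 1573 with array weights, 1667 with the replicate block and 610 in batch 1 alone (818 to 1211 without a library). The higher-to-lower split was 463 to 532 with median centring, 451 to 545 with quantile normalization, 753 to 914 with the block and 540 to 642 with a batch term. Members reaching 5 reads, or an RPM of 1, numbered 22 in the median control and 19 in the median cryptorchid library. The median of SOX, PAX, GATA and T-box genes was 0.27 with the filter at 2 and 0.34 in batch 1 alone. Same-numbered libraries deviated together with r of 0.44, 0.43, 0.47, 0.26 and 0.04 for replicates 1 to 5. The highest r of each of these control libraries with a cryptorchid library of another number was 0.22, 0.31, 0.07, 0.25 and 0.30. Only replicate 5 correlated better with another number, so pairing by number stayed unsettled and the main fit did not use it. The block uses only replicates 1 to 5, since cryptorchid replicates 6 and 7 have no control of their number. The sign turned, with the cause not tested, in batch 1 alone for *Lhx4* (-0.20), *Nkx1-1* (0.58), *Pbx4* (0.16), *Irx1* (0.90), *Meis2* (-1.07) and *Lhx8* (0.93), and in batch 2 alone for *Meis1* (0.94), *Dlx1* (1.83) and *Lhx2* (0.27). It turned with array weights for *Meis1* (0.089) and *Dlx1* (0.81), without the floor for *Irx1* (0.42) and *Meis2* (-0.084), with voom for *Irx1* (0.65), *Meis2* (-0.44) and *Lhx8* (0.58), and with the replicate block for *Irx1* (0.030), *Dlx1* (0.058), *Meis2* (-0.060) and *Lhx8* (0.11). It also turned for *Meis2* with quantile normalization (-0.10) and log2(RPM + 0.1) (-0.16), for *Lhx2* with log2(RPM + 1) (0.0076), and with the 3 libraries left out for *Pbx2* (-0.020), *Dlx1* (0.58), *Lhx8* (0.025) and *Lhx2* (0.070). Without a library the range was -0.92 to 0.042 for *Meis1*, -0.59 to 0.21 for *Irx1*, -0.53 to 0.27 for *Dlx1*, -0.65 to 0.70 for *Meis2*, -0.62 to 0.30 for *Lhx8* and -0.22 to 0.24 for *Lhx2*. In the shallowest library 1 read stood at -1.77 log2 RPM, so members under that level could not be compared.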
